A study of Mus musculus with 6 samples.

Results

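Igkc, Igha, Ighm, Jchain, Mzb1, Pou2af1, Cd79a, Cd79b and Pax5 are genes by which cells of the B lineage are recognised, and their transcripts were compared between MHCIIhiCX3CR1- and MHCIIhiCX3CR1+ cells of the mouse intestinal muscle wall. They were chosen by name, with earlier results of these data known, and all 9 were found among the 26110 genes of the deposited table. All 9 were also among the 17812 genes that were tested. In CX3CR1- libraries 8 of the 9 genes rose and none fell, against 12.2% of all tested genes that rose. The exception was Cd79b, a signalling chain of the B cell receptor.

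A B cell carries an antibody on its surface, in which heavy and light chains are held by the signalling proteins CD79A and CD79B. The transcription factor PAX5 keeps the B cell programme, and it is switched off when the cell becomes a plasma cell, which secretes the antibody in large amounts. Class switching replaces the heavy-chain constant region of IgM by that of IgG, IgE or IgA, and IgA is the class that plasma cells of the gut secrete most.

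The study sorted the cells from the muscularis externa (ME), the muscle layers around the small bowel, to compare the populations inside and outside the CX3CR1 gate. The mice were naive, had received no treatment and carried the genotype CX3CR1+/GFP, in which GFP replaces 1 copy of the gene for the fractalkine receptor CX3CR1 and marks the cells that use it. Both populations came from such mice, so each had 1 intact Cx3cr1 copy. Bulk RNA-seq gave 3 CX3CR1- and 3 CX3CR1+ libraries, which are called replicates 1 to 3 in the order of their library numbers. The study pooled the ME of 6 mice for a group without saying if the libraries came from separate pools, so the p-values measure the spread between libraries, which may be technical. The labels call the cells dendritic cells, whereas the study calls them macrophages. It reported that MHCII+ cells of both kinds stained for the macrophage marker IBA-1. By its flow cytometry most CX3CR1- cells carried CD11b, and very few carried CD11c or the dendritic cell marker CD103. The antibodies listed in the study's methods include none against a B cell marker, and MHCII is also carried by B cells.

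Values are gene-level estimated counts that the authors normalized between libraries. The libraries held about 5346379 to 17616748 reads assigned to genes, and the value of 3 reads, taken here as the limit of measurement, lay between 1.39 and 5.36. Cx3cr1 itself, the gene of the sort, stood at 23.6 ± 4.80 (SD, n = 3) in CX3CR1- and 366 ± 17.5 in CX3CR1+ libraries. All 10 genes of a macrophage list were lower in CX3CR1- libraries, and all 8 genes of a conventional dendritic cell list, with Flt3 and Zbtb46 among them, were higher. Over all tested genes 8.15% fell and 12.2% rose. Mitochondrial transcripts took 47.5 to 54.9% of the total in CX3CR1- and 18.1 to 21.2% in CX3CR1+ libraries. With equal totals after these transcripts were left out, the same 8 genes passed the test. In a bulk sample a larger number of cells of a type and more RNA per cell cannot be told apart.

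The antibody classes are told apart in such libraries by reads over the constant regions, which differ between classes from their first bases. The first 60 coding bases of 4 constant genes on which the results on antibody classes turn are shown 5′ to 3′, with the leading 31 bases in capitals, because a run of 31 bases is the unit in which the reads were assigned to transcripts. In each of the 4 genes this run was found in no transcript of another listed gene. The sequences are those of GENCODE release M21 on GRCm38.
Igha: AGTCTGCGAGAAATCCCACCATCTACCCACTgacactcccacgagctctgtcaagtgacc
Ighm: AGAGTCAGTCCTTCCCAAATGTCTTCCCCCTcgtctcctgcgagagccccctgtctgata
Ighg3: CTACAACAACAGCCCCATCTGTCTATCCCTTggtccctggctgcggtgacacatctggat
Igkc: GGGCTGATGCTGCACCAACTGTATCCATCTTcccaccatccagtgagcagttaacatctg

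Set side by side, Igha and Ighm had the same base at 20 of these 60 positions, and Ighm and Ighg3 at 27. On GRCm38 the heavy-chain constant genes lie on the minus strand of chromosome 12, with Igha at chr12:113254830-113260236, Ighm at chr12:113418558-113422730 and Ighg3 at chr12:113356224-113361232. Igkc lies on the plus strand at chr6:70726435-70726966. All are annotated as immunoglobulin constant genes. Over whole transcripts, Igha, Ighm and Igkc shared no run of 31 bases with another listed gene.

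Igkc encodes the constant region of the kappa light chain. Its normalized value was 5768, 21524 and 11619.5 in CX3CR1- replicates 1, 2 and 3, and 0, 6.56 and 2.83 in CX3CR1+ replicates 1, 2 and 3. The CX3CR1+ values stand for about 0, 8 and 2 reads, and every CX3CR1- library lay far above them. The means of 12971 ± 7965 (SD, n = 3) and 3.13 ± 3.29 differed 4142-fold, with a log2 fold change of 11.85 ± 0.67 (SE) on log2(value + 1) and an adjusted p = 3.75e-06 (limma, Benjamini-Hochberg over all tested genes). The size rested on these few reads, since the log2 fold change was 11.04 without CX3CR1+ replicate 1 and 12.49 without CX3CR1+ replicate 2.

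Igha, the constant region of the IgA heavy chain, had values of 7653, 22681 and 1604 in CX3CR1- and of 2.33, 0 and 1.43 in CX3CR1+ replicates 1, 2 and 3. The lowest CX3CR1- library, replicate 3, still stood far above the CX3CR1+ libraries, which held about 5, 0 and 1 reads. Their mean of 1.25 lay below the floor of 3 reads, which averaged 2.70 on the normalized scale over the CX3CR1+ libraries, and against that floor the CX3CR1- mean of 10646 ± 10852 (SD, n = 3) was at least 3944-fold higher. The fitted log2 fold change, which depends on the pseudocount, was 11.67 ± 0.81 (SE, adjusted p = 8.49e-06). Among the CX3CR1- libraries the highest value was 14.1 times the lowest, which was the widest spread of the 9 genes, and 2.07% of the tested genes with a value in all 3 libraries had a wider one. Without CX3CR1- replicate 2 the fitted value was 10.77, and without replicate 3 it was 12.68.

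Ighm, the constant region of the IgM heavy chain, was the only immunoglobulin gene among the 9 that was abundant in every library of both populations. Its values were 5126, 7844 and 24448 in CX3CR1- and 1598, 1951 and 1811 in CX3CR1+ replicates 1, 2 and 3. The groups did not overlap, and the means of 12473 ± 10460 and 1786 ± 178 (SD, n = 3) differed 6.98-fold, with a log2 fold change of 2.48 ± 0.45 (SE, adjusted p = 0.00256). CX3CR1- replicate 3 was the high library, and without it the log2 fold change was 1.83 (adjusted p = 0.000522). In CX3CR1+ libraries Ighm rested on about 3455, 2378 and 1278 reads, beside 0 to 8 reads of Igkc in the same libraries. Ighd, the IgD constant gene that resting B cells transcribe together with Ighm, stood at 46.5, 26.7 and 28.7 there.

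**Figure D1:**
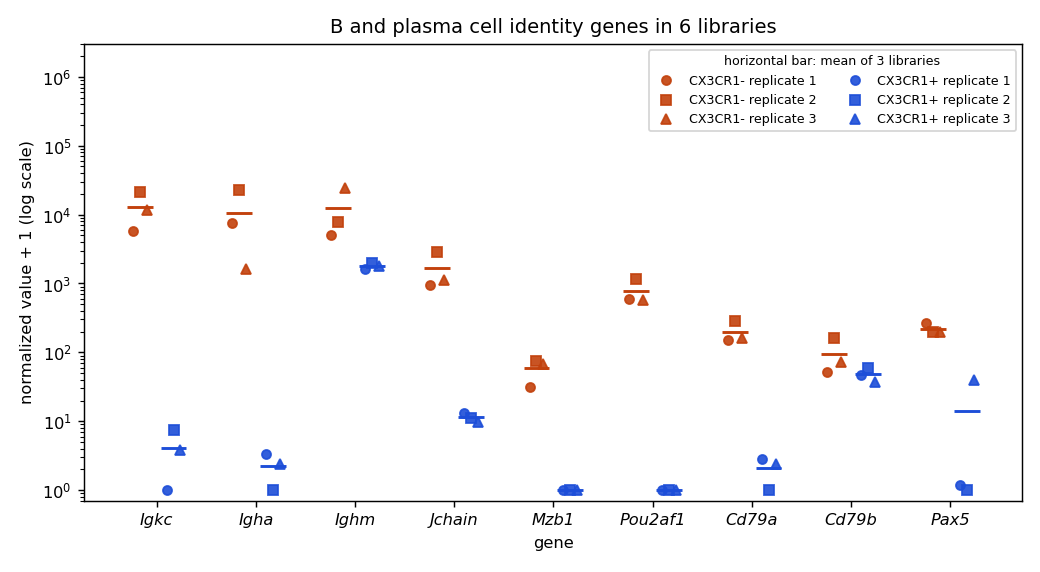
Normalized value + 1 (log axis) of the 9 genes in each of the 3 CX3CR1- and 3 CX3CR1+ libraries, with a bar at the mean of 3 libraries. The groups lie apart for 8 genes and overlap for Cd79b. Ighm and Cd79b have all CX3CR1+ libraries well above the limit of measurement, and Jchain lies above it by less in each of them.

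Jchain encodes the peptide that joins IgA dimers and IgM pentamers before secretion. It had values of 946, 2900.0 and 1115 in CX3CR1- and of 12.2, 10.2 and 8.81 in CX3CR1+ replicates 1, 2 and 3. The CX3CR1+ values stand for about 26, 12 and 6 reads and lay close to each other, so the 159-fold difference of the means did not rest on values of 0. The log2 fold change was 7.0 ± 0.40 (SE, adjusted p = 3.75e-06). The gene lies on the minus strand at chr5:88519809-88527891.

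Mzb1 encodes a chaperone of the endoplasmic reticulum that helps to assemble and secrete antibodies in marginal zone B cells and plasma cells. It was low even where it was found, with 30.3, 75.1 and 66.8 in CX3CR1- replicates 1, 2 and 3, and it was listed at 0 in all CX3CR1+ libraries. Against the floor of 3 reads the mean of 57.4 ± 23.9 (SD, n = 3) was at least 21.3-fold higher. The adjusted p was 0.000285, with a fitted log2 fold change of 5.77 that depends on the pseudocount.

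Pou2af1 encodes a coactivator that binds the octamer factors OCT1 and OCT2 at immunoglobulin promoters. Its values were 592, 1168 and 576 in CX3CR1- replicates 1, 2 and 3, and it was listed at 0 in all 3 CX3CR1+ libraries. The mean of 779 ± 337 (SD, n = 3) was at least 288-fold higher than the same floor, with an adjusted p = 1.45e-06, the smallest of the 9 genes. The gene lies on the plus strand at chr9:51213708-51240080. Pou2f2, which encodes OCT2, went the other way, with a log2 fold change of -2.31 ± 0.19 (SE, adjusted p = 2.10e-05).

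Of the signalling chains of the B cell receptor, Cd79a passed the test and Cd79b did not, and the difference between these genes was not tested. Cd79a (chr7:24897381-24902197, plus strand) had values of 150, 286 and 161 in CX3CR1- and of 1.85, 0 and 1.42 in CX3CR1+ replicates 1, 2 and 3. The CX3CR1+ values stand for about 4, 0 and 1 reads, with a mean below the floor, so that Cd79a was at least 73.7-fold higher in CX3CR1- libraries (fitted log2 fold change 6.65 ± 0.55, adjusted p = 2.18e-05). Cd79b (chr11:106311341-106314762, minus strand) had values of 51.6, 160.2 and 70.8 in CX3CR1- and of 45.7, 59.1 and 36.5 in CX3CR1+ replicates 1, 2 and 3. Its groups overlapped, because CX3CR1+ replicate 2 lay above CX3CR1- replicate 1. The log2 fold change was 0.84, with a 95% interval from -0.11 to 1.80 (adjusted p = 0.191), so that neither equal levels nor a difference of more than 3-fold lay outside it. The CX3CR1+ values of Cd79b stand for about 99, 72 and 26 reads, where Cd79a had 4 or fewer.

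Pax5 (chr4:44524757-44710487, minus strand) was the most even of the 9 genes over the CX3CR1- libraries, with 263, 196 and 199 in replicates 1, 2 and 3. In CX3CR1+ replicates 1, 2 and 3 it had 0.199, 0 and 38.7. CX3CR1+ replicate 3 therefore stood alone with about 27 reads, while the other two held fewer than 1. The log2 fold change was 5.91 ± 1.15 (SE, adjusted p = 0.00410). It was 7.64 without CX3CR1+ replicate 3 and 5.12 and 4.98 without replicates 1 and 2. Pax5 overlaps genes on the opposite strand, and the library kit does not mark the strand, but it shared only 1.04% of its runs of 31 bases with one of them, Gm12462.

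For 8 of the 9 genes every CX3CR1- library lay above every CX3CR1+ library, which held for 20.3% of all tested genes. The exact two-sided permutation test gave p = 0.1 for each of these 8, the smallest value that 3 against 3 libraries allow, and p = 0.2 for Cd79b. The median log2 fold change of the 9 genes was 6.65, or 6.20 with Igha, Mzb1, Pou2af1 and Cd79a set to their lower bounds, beside 0.00 for all tested genes. Of the 9, 5 had a mean under 10 in CX3CR1+ libraries and so passed the filter on low values through the CX3CR1- libraries, which leaves them little room not to differ.

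Per kilobase of their longest coding transcript, the order of the CX3CR1- means was Igkc with 24381, Ighm with 7346, Igha with 4191, Jchain with 1187, Pou2af1 with 306, Cd79a with 137, Cd79b with 65.8, Mzb1 with 63.5 and Pax5 with 27.4. The neighbours Ighm and Igha did not differ beyond their SDs of 6160 and 4273, nor did Igha and Jchain beyond that of Igha, nor Cd79b and Mzb1 beyond theirs of 40.5 and 26.4. With the shortest transcripts Igha passed Ighm, with 9678 against 8354, and Mzb1 passed Cd79b and Cd79a, with 196 against 78.8 and 137. The place of Pax5 was not fixed by these data either, because its annotated coding transcripts run from 324 to 8004 bases.

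The order of the 3 CX3CR1- libraries was not the same for all 9 genes. Replicate 2 was the highest for 7 of them, Igkc, Igha, Jchain, Mzb1, Pou2af1, Cd79a and Cd79b, whereas replicate 3 was the highest for Ighm and replicate 1 for Pax5. Over all tested genes, replicate 2 was the highest for 33.7%. It was also the highest for 7 of the 10 macrophage genes and 6 of the 8 conventional dendritic cell genes. Igkc, Jchain, Mzb1, Cd79a and Cd79b shared the full order replicate 2, 3, 1, which 15.6% of the tested genes had. Igha and Pou2af1 followed the order 2, 1, 3 (18.1%), Ighm the order 3, 2, 1 (15.0%) and Pax5 the order 1, 3, 2 (16.8%). Some places rest on close values, as 592 and 576 for Pou2af1 and 150 and 161 for Cd79a in replicates 1 and 3. Pax5 had 196 and 199 in replicates 2 and 3. These places may change with the scaling, and the order was not tested under other scalings. The highest CX3CR1- value was 1.34 times the lowest for Pax5, 1.90 for Cd79a, 2.03 for Pou2af1, 2.48 for Mzb1, 3.07 for Jchain, 3.11 for Cd79b, 3.73 for Igkc and 4.77 for Ighm, beside a median of 1.85 over tested genes. Igkc, Igha and Ighm thus spread more widely than Pax5, Cd79a and Pou2af1, but Ighd, an antibody gene outside the 9, spread only 1.63-fold.

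The ratio of normalized values between genes, not set per length, was close over the CX3CR1- libraries for some pairs and not for others. Jchain was 6.29, 10.1 and 6.94 times Cd79a in CX3CR1- replicates 1, 2 and 3, a ratio that varied 1.61-fold. Pou2af1 was 0.626, 0.403 and 0.517 of Jchain, which varied 1.56-fold. Ighm was 0.67, 0.346 and 15.2 times Igha, which varied 44.1-fold. The library that was highest in Ighm was thus the lowest in Igha, while Igkc, the light chain that serves either class, was between its other values there.

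**Figure D2:**
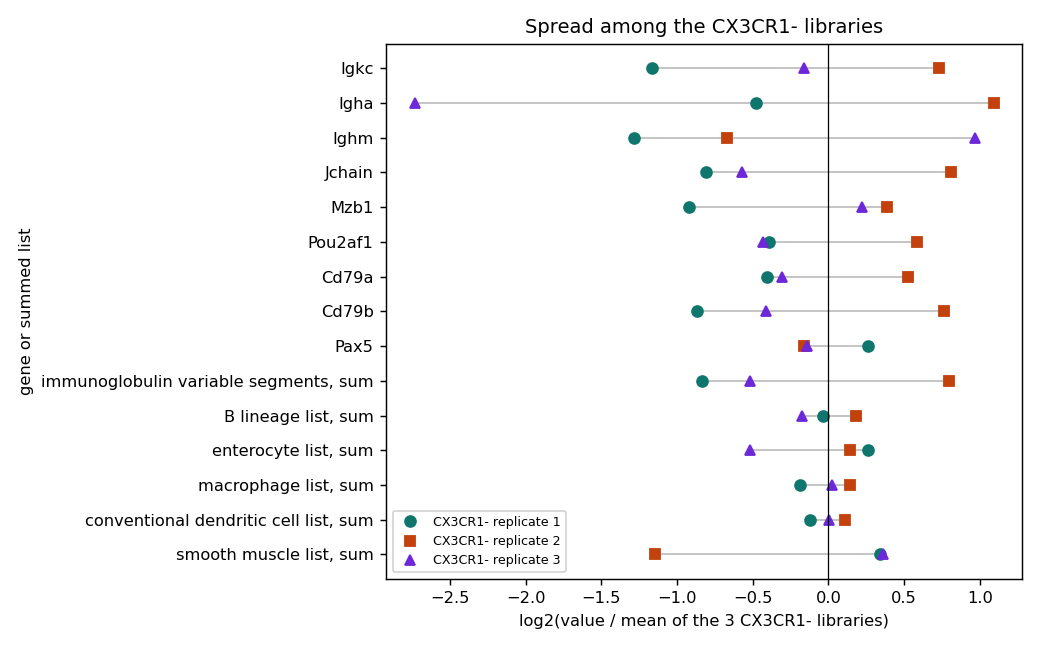
log2 of the value over the mean of the 3 CX3CR1- libraries, for each of the 9 genes and for the summed values of the variable segments and of 5 gene lists. Replicate 2 is at the right for 7 of the 9 genes, and Igha reaches farthest to the left in replicate 3. The macrophage and conventional dendritic cell sums share the order replicate 2, 3, 1 with Igkc and Jchain. The enterocyte and smooth muscle sums take other orders.

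The heavy-chain classes were taken up in full, as values per kilobase of the longest coding transcript. In CX3CR1- replicate 1, Igha and Ighm took 47.0 and 47.1% of the summed heavy-chain values and the 3 listed IgG genes 3.50%. In replicate 2, Igha took 44.9%, Ighm 23.2% and IgG 30.7%, nearly all of it Ighg3 with 29.7%. In replicate 3, Ighm took 92.1%, Igha 4.04% and IgG 2.59%. Each library thus had a class mixture of its own, which was not tested, since each mixture is that of 1 library. With the shortest transcripts Igha came to 61.9, 51.4 and 7.59% and Ighm to 30.5, 13.1 and 85.2% in replicates 1, 2 and 3, so that Igha led in replicate 1 as well as in replicate 2, and Ighm again in replicate 3.

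Ighg3 showed the difference between libraries most plainly, with 22.7, 14270 and 297 in CX3CR1- replicates 1, 2 and 3 and 0 in all CX3CR1+ libraries. Ighg1 was high where Ighg3 was not, with 445, 19.8 and 688, and Ighg2b stood at 90.5, 512 and 12.2. The 3 IgG genes analysed here shared at most 3.59% of their runs of 31 bases with other listed genes. Ighg2c, not analysed here, has 14.4% of its runs in common with Ighg2b, which is uncertain for that reason. Ighd was even, with 267, 435 and 365 in CX3CR1- libraries and a log2 fold change of 3.36 ± 0.31 (SE, adjusted p = 4.09e-05).

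The light chains varied likewise. Igkc took 60.7, 85.7 and 96.6% of the light-chain values per kilobase in CX3CR1- replicates 1, 2 and 3, and the lambda genes Iglc1, Iglc2 and Iglc3 together took 39.3, 14.3 and 3.41%. Iglc1 alone had values of 2654, 2580 and 138, and Iglc3 of 525, 102 and 56.8. Iglc2 ran the other way in replicate 1, with 12.3, 494 and 208, and 25.1% of the 31-base runs of Iglc3 also occur in Iglc2, so that these 2 genes are uncertain. Against 12.2% of all tested genes, all 10 immunoglobulin constant genes that the table lists rose in CX3CR1- libraries. For 8 of them the CX3CR1+ mean was under 10. Their sum was 0.181, 0.605 and 0.349% of all normalized values in CX3CR1- replicates 1, 2 and 3. In CX3CR1+ libraries it was 0.0202 to 0.0243%, almost all of it Ighm. With mitochondrial transcripts left out of the total, the shares were 0.402, 1.15 and 0.735% against 0.0256 to 0.0300%.

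**Figure D3:**
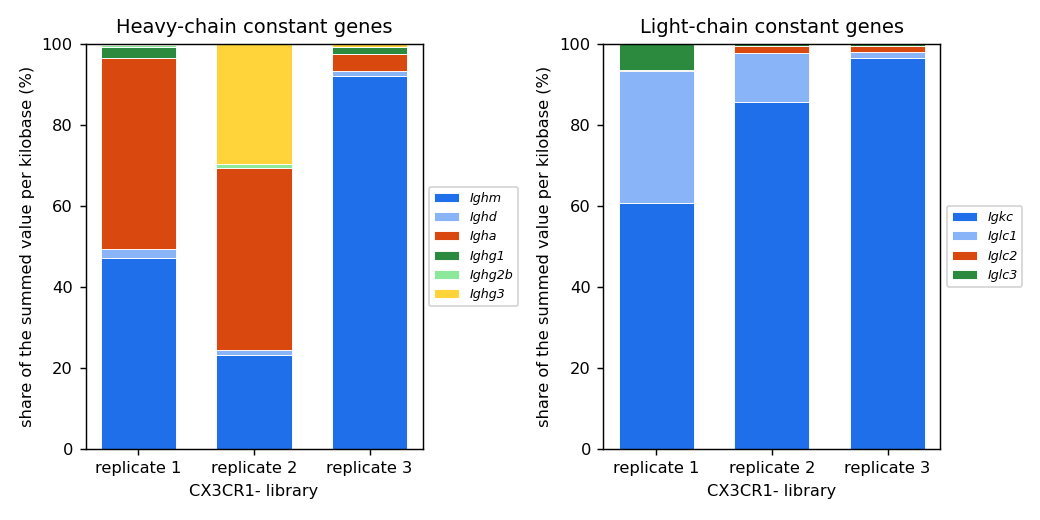
Share (%) of each constant gene in the summed heavy-chain (left) and light-chain (right) values per kilobase of the longest coding transcript, in the 3 CX3CR1- libraries. Ighm fills 92.1% of the heavy-chain bar in replicate 3, Ighg3 29.7% in replicate 2, and Igkc 60.7 to 96.6% of the light-chain bars.

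The light-chain constant genes together came to 2.79, 2.37 and 1.45 times the heavy-chain genes per kilobase in CX3CR1- replicates 1, 2 and 3. In CX3CR1+ replicates 1, 2 and 3 the same ratio was 0.00105, 0.0121 and 0.00492. The heavy-chain values of CX3CR1+ libraries, 97.2 to 98.6% of them Ighm, were thus not matched by light-chain values. The 114 listed variable segments of the heavy and light chains summed to 4222, 13093 and 5256 in CX3CR1- replicates 1, 2 and 3, in the order of Igkc and Jchain, and to 2.76, 14.0 and 2.83 in CX3CR1+ libraries. At least 58 of them exceeded 3 reads in each CX3CR1- library, and no more than 1 did so in a CX3CR1+ library.

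The wider B lineage list held 27 genes with Cd79a, Cd79b and Pax5 among them, of which 26 were tested, 19 rose and 3 fell, beside 12.2% of all genes that rose and 8.15% that fell. Their median log2 fold change was 2.74, and for 8 of the 26 the CX3CR1+ mean was under 10. Ms4a1, which encodes CD20, stood at 163, 117 and 163 against 8.67, 20 and 12.0 (log2 fold change 3.41 ± 0.38, adjusted p = 0.000141). The receptor genes Cr2, Fcer2a and Tnfrsf13c, which encode CD21, CD23 and the BAFF receptor, rose by log2 fold changes of 2.99, 2.12 and 3.80, where that of Cr2 was 2.33 without CX3CR1+ replicate 3. The transcription factor genes Ikzf3 and Bcl11a rose by 7.75 and 4.12 and Ebf1 by 1.85, where that of Bcl11a was 3.53 without CX3CR1+ replicate 3. Ikzf3, with 270, 344 and 337 against 0, 2.19 and 0, was at least 117-fold higher.

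Other genes of the list were the higher ones in CX3CR1+ libraries. Cd72, a B cell coreceptor, had means of 76.2 in CX3CR1- and 521 in CX3CR1+ libraries (log2 fold change -2.77 ± 0.22, adjusted p = 1.82e-05). Blnk, the adaptor downstream of the B cell receptor, fell by 1.45 on the log2 scale and Pou2f2 by 2.31. Bank1, a scaffold of the same pathway, stood at -0.94 on that scale (adjusted p = 0.00223), short of the fold that was set. The summed values of the whole list overlapped between the groups, with 4745 to 6087 in CX3CR1- and 5464 to 6285 in CX3CR1+ libraries. Such sums weigh genes by their level. The CX3CR1+ sums rested largely on Pou2f2, Blnk and Bank1, with CX3CR1+ means of 2268, 1052 and 792 against 456, 397 and 411. They therefore do not show the direction of the 19 genes that rose.

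The plasma cell list gave a mixed result. Of its 18 genes, Jchain, Mzb1 and Pou2af1 included, 17 were tested, 8 rose, 3 fell and 6 did not pass the test, with a median log2 fold change of 1.11. For 4 of the 17 the CX3CR1+ mean was under 10, and over all tested genes 12.2% rose and 8.15% fell. Sdc1, which encodes the plasma cell surface marker CD138, rose from 6.71, 3.15 and 1.99 in CX3CR1+ to 155, 113 and 103 in CX3CR1- libraries (log2 fold change 4.74 ± 0.48, adjusted p = 7.29e-05). Its CX3CR1- values had the order replicate 1, 2, 3, which 16.2% of the tested genes had. The cell source of its transcripts was not tested. The secretory pathway genes Txndc5 and Sec11c rose by 1.68 and 1.46, and Irf4, which conventional dendritic cells also use, by 1.64. Creld2 rose by 1.11, but it passed neither under quantile normalization nor without CX3CR1- replicate 3, CX3CR1+ replicate 2 or CX3CR1+ replicate 3.

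Prdm1, the gene of the plasma cell regulator BLIMP-1, fell by 2.22 on the log2 scale, from a mean of 870 ± 331 in CX3CR1+ to 184 ± 57.8 in CX3CR1- libraries (SD, n = 3). Slamf7 fell by 1.22 and Herpud1 by 1.14, but neither reached the fold that was set under quantile normalization, nor did Herpud1 with equal totals without mitochondrial genes. Xbp1, the factor of the secretory programme, did not pass the test (log2 fold change 0.14, adjusted p = 0.78), with 288, 724 and 509 in CX3CR1- replicates 1, 2 and 3, which is the order of Igkc and Jchain. Tnfrsf17, which encodes the plasma cell receptor BCMA, had means of 10.4 and 12.3 (log2 fold change -0.09, adjusted p = 0.946). Derl3 was high in CX3CR1- replicate 2 alone, with 4.10, 77.0 and 17.1, and did not pass (log2 fold change 1.93, adjusted p = 0.183), though it did without CX3CR1- replicate 1 (2.89, adjusted p = 0.0354).

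**Figure D4:**
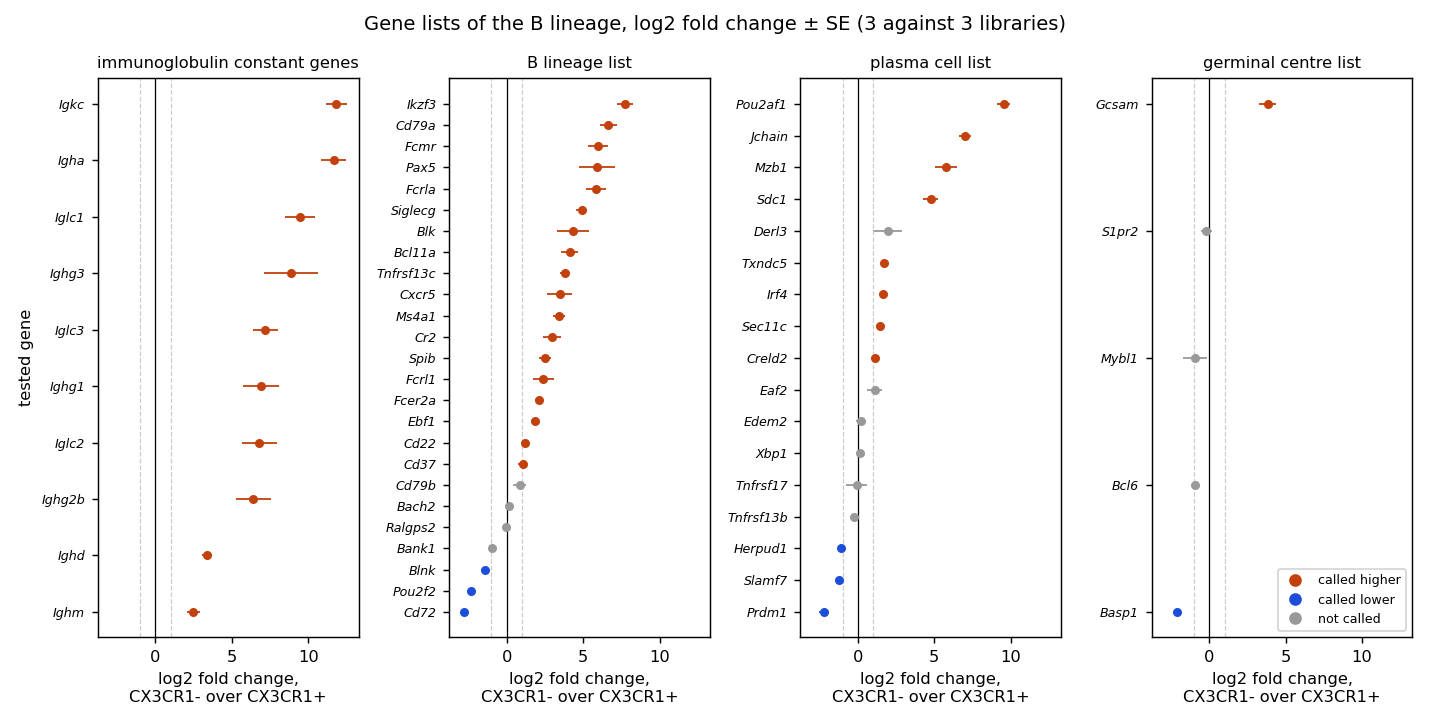
log2 fold change (CX3CR1- over CX3CR1+, limma on log2(value + 1), bars are SE, 3 against 3 libraries) of the tested genes drawn from 4 lists, coloured by the call, with dashed lines at the fold threshold. All 10 constant genes lie to the right, most B lineage genes and 8 of 17 plasma cell genes were called higher, and the germinal centre genes scatter about 0.

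Germinal centre genes mark B cells that mutate and select their antibodies. Of 6 tested genes 1 rose and 1 fell, with a median log2 fold change of -0.57. Over all tested genes 12.2% rose and 8.15% fell, and 6 genes are too few to tell the list from these shares. Gcsam had 50.9, 142.3 and 74.5 in CX3CR1- against 5.64, 2.31 and 7.98 in CX3CR1+ libraries (log2 fold change 3.83 ± 0.55, adjusted p = 0.000701). Bcl6, the regulator of the germinal centre state, stood at -0.95 on the log2 scale (adjusted p = 0.00345), short of the fold that was set, which it passed without CX3CR1+ replicate 1 or 3 (-1.03 and -1.01).

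Markers of other cells moved with the same comparison, in which 12.2% of all tested genes rose and 8.15% fell. All 10 genes of an enterocyte list rose, and their sum was 29763, 27407 and 17363 in CX3CR1- replicates 1, 2 and 3 against 26.8 to 52.3 in CX3CR1+ libraries. For 8 of these genes the CX3CR1+ mean was under 10, so they passed the filter through the CX3CR1- libraries. Pigr, the epithelial receptor that carries IgA and IgM into the gut lumen, stood at 259, 195 and 109 against 0.883, 0 and 1.35, at least 69.4-fold higher. Replicate 1 was the highest for Pigr and the enterocyte sum, and also for Pax5 and, on the wider lists, for Fcer2a and Sdc1 among others. It was the lowest for Igkc, Jchain, Mzb1, Cd79a, Cd79b and Ighm, and neither for Igha and Pou2af1. Of the T cell list 5 of 10 genes were tested, of which 2 rose, Cd4 fell and 2 did not pass. Those that rose were Cd2, with means of 164 in CX3CR1- and 1.39 in CX3CR1+ libraries, and Cd8a, with 29.6 and 5.31. Cd3d, of the T cell receptor complex, stood at 68.6, 69.1 and 112.7 in CX3CR1- against 53.7, 69.6 and 123.5 in CX3CR1+ libraries and did not pass, and Cd3e at 1.99, 16.8 and 33.7 against 2.55, 0.521 and 0. The list's sums ran from 480 to 536 in CX3CR1- and from 696 to 803 in CX3CR1+ libraries. Cd4 alone, with means of 107 and 528, held the largest part of the CX3CR1+ sums, so their direction rests on that gene. Of the plasmacytoid dendritic cell list, whose cells share Tcf4, Irf8 and Ly6d with early B cells, 2 of 6 tested genes rose and Siglech fell, and the sums were 1871 to 2441 against 3045 to 3120. No gene of the smooth muscle list passed, with sums of 1120 to 3177 and 2324 to 3260. The part of these markers in the results was not tested.

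The genes most like Jchain and Cd79a over the 6 libraries were on neither the B lineage nor the plasma cell list. By Pearson's r of log2(value + 1), Mep1a, Abcg5, Gpr35, Strbp and Anpep were closest to Jchain, each with r = 0.999, and Clec9a, Diaph1, Mcu, Rab30 and Ccdc88c closest to Cd79a, with r from 0.997 to 0.999. Mep1a and Anpep encode peptidases of the enterocyte brush border, and Clec9a a receptor of conventional dendritic cells. The 6 points form 2 populations far apart, and 853 tested genes reached an r of 0.95 with Jchain and 803 with Cd79a. Among the 9 genes, Pou2af1 was the closest to both, with r = 0.997 for Jchain and 0.99 for Cd79a, and Cd79b the farthest, with r = 0.729 and 0.65.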

How the data were processed

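Bulk RNA-seq data of 3 CX3CR1- and 3 CX3CR1+ libraries were grouped by the sample titles. The authors pseudoaligned the reads to the mouse transcriptome (mm10, GENCODE release M16) with Kallisto, added up the estimated counts for a gene and scaled the sums between libraries with DESeq2. The deposited values are this normalized signal. They were not treated as whole reads, so no count test was run. Of the values, 42.5 to 44.6% were within 0.01 reads of a whole multiple of the library's smallest step. That step gave the approximate reads and the value of 3 reads, which covers counting error only. Both would shift for a gene if the scaling differed between genes, which was not checked. The 26110 rows hold 23 symbols more than once.

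Genes with a mean of at least 10 were tested with limma 3.58.1 in R 4.3.3 (intensity trend, two-sided) on log2(value + 1), and p-values were adjusted after Benjamini and Hochberg across the 17812 genes. Genes are called, and said to have risen or fallen, where the adjusted p is 0.05 or less and the log2 fold change is 1 or more in size. The test was checked on simulated data. Single genes were also compared by an exact permutation test in scipy 1.17.1. Positions, lengths and shared 31-base runs came from GENCODE release M21 for GRCm38. The members and gene lists were chosen with earlier results of these data known. All 9 members are named with every library, other genes only from the lists, of which 2 tested genes are not reported here by name, and likeness by the 5 largest r for Jchain and Cd79a. No interval is given for shares, because the values are not counts. Plots were drawn with matplotlib 3.10.9.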

Additional observations from a re-analysis of the deposited data

How the results depend on the processing

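The 8 calls among the 9 genes were the same with a pseudocount of 0.5 or 10, without the filter, under 3 other scalings, no trend, library quality weights, no fold threshold and with each library left out. A mean of at least 50 left 8 of the genes to test, without Mzb1, and 7 calls. The number of genes whose groups do not overlap was 8 or 9 under each scaling and with each library left out. Quantile normalization put the median over all tested genes at -0.15 (log2), and equal totals without mitochondrial genes put it at 0.17. Under these, Cd79b had 0.59 and 1.01 and did not pass. Calls over all genes, 3628, were 2413 with a mean of at least 50, where fewer genes were tested, and 2771 to 3869 with a library left out. Values near 0 changed sign: Xbp1 ran from -0.16 without CX3CR1- replicate 2 to 0.50 without CX3CR1- replicate 1. Tnfrsf17 was at 0.070 with equal totals, and with a library left out it ran from -0.65 without CX3CR1+ replicate 3 to 0.19 without CX3CR1- replicate 1. Leaving out a library moved the fold of the IgG and lambda genes by over 1.5 times, to between 6.39 and 11.01 on the log2 scale for Ighg3, with every call kept. The labels give no pairing, but the library numbers form 3 adjacent pairs, whose deviations from the group means correlated at 0.0142 to 0.104, and not every library correlated best with its neighbour. A replicate block on these pairs, chosen after seeing the data, gave 8 calls among the 9 genes (Cd79b adjusted p = 0.125) and 22, 11 and 3610 in the B lineage list, the plasma cell list and all genes. The depth does not allow a fold to be measured where the CX3CR1+ mean lies below the value of 3 reads.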
